A study of Mus musculus with 2 samples.

Results

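The genes described here were 37 proliferation genes, of 31053 genes in the table, and the cells in which they were expressed. They were taken by symbol and each symbol matched a single row. By their usual place in the cell cycle, 12 were S phase genes, 24 were G2 and M phase genes and Cdk2 was a G1/S kinase. A cell was called cycling when at least 5 of 12 G2/M members had a unique molecular identifier (UMI, 1 counted RNA molecule): Mki67, Top2a, Birc5, Cenpf, Cdk1, Ube2c, Ccnb1, Ccnb2, Ccna2, Tpx2, Nusap1 and Prc1. These are named the calling genes below. The other 25 members were not used for the call.

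Pancreatic islets came from wild-type C57BL/6J mice. The multipara group started at 9 weeks of age and went through 3 pregnancies in a row, and its islets were taken 3 weeks after the last delivery. The virgin group was age-matched and never pregnant. Both groups were handled alike after isolation (serum-containing medium, then trypsin), and each gave 1 single-cell 3′ library. The number of mice in a library is not given in the labels, so no spread between mice could be measured and all intervals below cover counting error only. The study asks about the capacity of beta cells to proliferate after repeated pregnancy.

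Cell division runs through DNA replication in S phase and chromosome segregation in M phase. The MCM helicase, PCNA, ribonucleotide reductase and thymidylate synthase serve replication, whereas cyclin B with CDK1, the Aurora kinases, PLK1, mitotic kinesins and the spindle checkpoint serve mitosis. Transcripts of the mitotic genes accumulate late in the cycle and are low in resting cells, while replication genes are often transcribed at a low level in cells that do not divide. Adult rodent beta cells divide rarely, and pregnancy is a known stimulus for their division.

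Genes of the late cell cycle are known to be controlled through CCAAT boxes and the CHR element, and genes of replication through E2F sites. Promoters of 30 of the 37 members were matched in RefSeq (GRCm38.p6), and the 250 bases before the annotated start were searched on both strands for CCAAT, for TTTGAA (CHR) and for TTTGGCGC or TTTCGCGC (E2F). CCAAT occurred in 26 of 30 (86.7%), against 34.5% of 27025 promoters with the same window. CHR occurred in 7 of 19 G2/M promoters and in 1 of 10 S phase promoters, against 16.3% of all. The E2F letters occurred in 3 of 30 members (Cdk1, Mcm5 and Mcm6), against 0.673% of all. The promoters of 6 members are shown from -150 to -1 of the start, because these genes bracket the findings below: the 4 calling genes with the most UMIs in cycling cells, Tyms as the S phase member with the most UMIs and Mcm5 as the S phase member with the largest part of its UMIs in cycling cells, each among the 18 members whose shown window held no annotated exon of the gene. Capitals mark CCAAT, CHR or E2F letters on either strand.
Mki67, chr7:135716380-135716529, minus strand: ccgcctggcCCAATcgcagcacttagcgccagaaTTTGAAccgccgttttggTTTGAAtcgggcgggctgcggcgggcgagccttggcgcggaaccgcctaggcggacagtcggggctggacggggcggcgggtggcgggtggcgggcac
Top2a, chr11:99024190-99024339, minus strand: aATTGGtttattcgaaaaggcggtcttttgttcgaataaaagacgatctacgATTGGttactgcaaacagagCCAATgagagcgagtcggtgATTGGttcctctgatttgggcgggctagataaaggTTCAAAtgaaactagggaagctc
Birc5, chr11:117849087-117849236, plus strand: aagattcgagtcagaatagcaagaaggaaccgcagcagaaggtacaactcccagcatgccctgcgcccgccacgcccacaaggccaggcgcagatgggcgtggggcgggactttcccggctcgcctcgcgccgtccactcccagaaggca
Cenpf, chr1:189688087-189688236, minus strand: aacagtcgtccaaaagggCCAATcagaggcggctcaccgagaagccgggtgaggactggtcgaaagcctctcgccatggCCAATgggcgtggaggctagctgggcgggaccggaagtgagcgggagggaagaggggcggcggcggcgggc
Tyms, chr5:30073626-30073775, minus strand: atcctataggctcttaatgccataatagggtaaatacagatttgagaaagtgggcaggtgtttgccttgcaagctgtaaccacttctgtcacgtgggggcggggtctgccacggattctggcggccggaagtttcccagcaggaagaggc
Mcm5, chr8:75109359-75109508, plus strand: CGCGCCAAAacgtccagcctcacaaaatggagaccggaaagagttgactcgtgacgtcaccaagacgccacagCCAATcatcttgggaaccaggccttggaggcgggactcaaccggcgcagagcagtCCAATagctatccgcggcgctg
Within the shown bases, Top2a carried CCAAT at -149, -98, -78 and -58 and CHR at -23. Mki67 carried CHR at -116 and -98. Mcm5 had overlapping E2F matches at -153 and -149, of which the first began before the shown bases. Birc5 and Tyms held none of the searched letters in the whole 250 bases. These are matches of letters and no binding was measured.

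The virgin library held 5463 cell barcodes and the multipara library 5075, with 94853806 and 82503776 UMIs. After filtering, 4312 virgin and 3356 multipara cells were kept, with medians of 17155 and 18318 UMIs. The libraries shared 7 barcodes, none of them cycling. Clusters were built without the members and 42 other S phase and 64 other G2/M genes and were named from markers, so a name such as beta-like is a rebuilt one. All listed markers of the alpha-, B cell-, T cell-, plasma-, macrophage-, endothelial-, mesenchymal- and erythroid-like classes were over 2-fold higher in their class than in the other kept cells, as were 11 of 12 for beta-like, 8 of 9 for dendritic-like, 5 of 7 for delta-like and 3 of 5 for PP-like cells. The 48 erythroid-like cells were all multipara, and cells with at least 5% haemoglobin UMIs numbered 44 kept multipara and 0 kept virgin cells. Before filtering, 90 multipara and 11 virgin barcodes had that share, and no virgin one of these was cycling. The virgin library held 151 B cell-like and 44 plasma-like cells, against 40 and 4 in the multipara library.

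Cycling cells were few and stood apart from the rest. Of 7668 kept cells, 7254 had no calling gene, 336 had a single one, and 16 had 3 or 4, just under the threshold. Of the 45 kept cells at or over the threshold, 5 had 5 or 6 genes and 20 had all 12. Among the 16 cells just under it, 11 were erythroid-like, 4 plasma-like and 1 beta-like. No cycling cell was called a doublet.

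**Figure D1:**
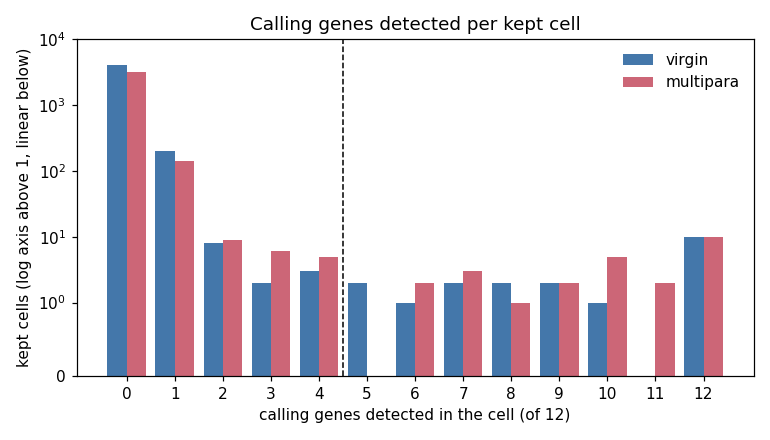
Number of kept cells (vertical axis, logarithmic above 1 and linear below) by how many of the 12 calling genes had a UMI (horizontal axis), virgin in blue and multipara in red. The dashed line is the threshold of 5 genes, and 20 cells, 10 in each library, had all 12.

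In the virgin library 20 of 4312 cells cycled (0.464%, exact 95% interval 0.284 to 0.715). In the multipara library 25 of 3356 cycled (0.745%, 0.483 to 1.10). The intervals overlap, and the makeup of the cycling cells was different. Of the virgin cycling cells, 17 of 20 lay in immune classes. Of the multipara cycling cells, 16 of 25 were erythroid-like, a class with no kept virgin cell. Without the erythroid-like cells, 9 of 3308 multipara cells cycled (0.272%, 0.124 to 0.516), so the order of the libraries turned. Virgin cycling cells carried a median of 27129 UMIs and multipara ones 13228, against 17118 and 18347 in the other cells. Thinned to 7500 UMIs a cell, 15 of 3236 virgin cells (0.464%) and 17 of 2559 multipara cells (0.664%) still cycled.

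**Figure D2:**
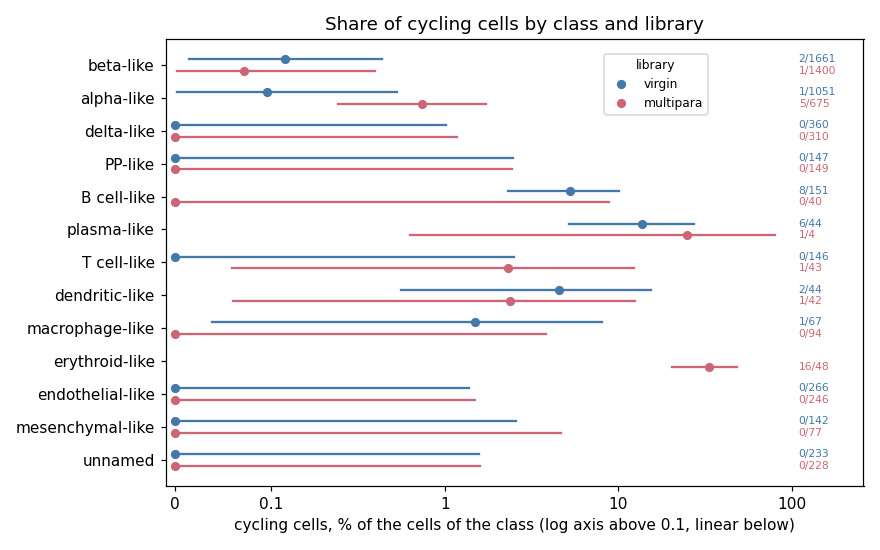
Cycling cells as a percentage of the cells of each class (horizontal axis, logarithmic above 0.1% and linear below), with exact 95% intervals as lines and the counts at the right. Virgin is blue and multipara red. Erythroid-like (16 of 48) and virgin plasma-like cells (6 of 44) had the highest shares with more than 10 cells, and the beta-like shares lay at 2 of 1661 and 1 of 1400.

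Beta-like cells hardly cycled in either library. The call was met by 2 of 1661 virgin cells (0.120%, 0.0146 to 0.434) and by 1 of 1400 multipara cells (0.0714%, 0.00181 to 0.397). No difference in beta cell cycling was detectable with so few events. The first virgin cell had 21824 insulin UMIs of 47199 in all (46.2%), 35 glucagon UMIs and 12 of Mafa, a beta cell transcription factor, and it expressed all 12 calling genes and 10 of 12 S phase members. The second had 14004 insulin UMIs (55.1%), 9 calling genes and no S phase member. The multipara cell had 24571 insulin UMIs (55.2%), 7 calling genes, 1 S phase member and 14 calling-gene UMIs in all, which fell to 1 calling gene when it was thinned to 7500 UMIs. A further multipara barcode with 34790 insulin UMIs (56.6%) had all 12 calling genes and 206 calling-gene UMIs, but it was not kept because its 61459 UMIs exceeded the limit of 60000. With that barcode each library would hold 2 cycling beta-like cells. This count leaves out a virgin plasma-like droplet with 17267 insulin UMIs (35.2%) and a virgin dendritic-like one with 1371, both described below.

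Alpha-like cells cycled in 1 of 1051 virgin cells (0.0951%, 0.00241 to 0.529) and in 5 of 675 multipara cells (0.741%, 0.241 to 1.72), with overlapping intervals. A multipara erythroid-like droplet with 9488 glucagon UMIs, described below, is not in this count. The virgin cell carried 7789 glucagon UMIs (26.6%) and 1184 of Ttr, a transthyretin gene abundant in alpha cells. The 5 multipara cells carried between 4960 and 12104 glucagon UMIs (17.5 to 39.3%), at most 182 insulin UMIs and no Ptprc UMI, the leukocyte marker. Of these, 1 held 4488 Ppy and 3492 Pyy UMIs beside its glucagon, and the others had at most 409 Ppy UMIs. All 5 expressed at least 10 calling genes, and 4 expressed at least 6 S phase members. Thinned to 7500 UMIs, 1 of 959 and 5 of 622 alpha-like cells were called.

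Delta-like and PP-like cells gave no cycling cell. There were 0 of 360 virgin and 0 of 310 multipara delta-like cells, which allows shares of up to 0.833% and 0.968%. Of PP-like cells 0 of 147 and 0 of 149 cycled, which allows up to 2.04% and 2.01%. No cycling cell was found among 266 and 246 endothelial-like or 142 and 77 mesenchymal-like cells, which allows up to 1.13% and 1.22%, and 2.11% and 3.90%. Over the 4 endocrine classes together, 3 of 3219 virgin (0.0932%, 0.0192 to 0.272) and 6 of 2534 multipara cells cycled (0.237%, 0.0869 to 0.515).

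Virgin cycling cells were mostly of the B lineage. B cell-like cells cycled in 8 of 151 (5.30%, 2.31 to 10.2) and plasma-like cells in 6 of 44 (13.6%, 5.17 to 27.4). In the multipara library 0 of 40 B cell-like cells (up to 7.50%) and 1 of 4 plasma-like cells did. The 8 B cell-like cells had between 8 and 40 UMIs of Cd79a, a B cell receptor subunit, and all had H2-Aa and Cd74, which serve antigen presentation. Their Igkc UMIs ran from 121 to 1387, and Jchain, the joining chain of secreted antibody, was seen in 6 of the 8. Of the 6 virgin plasma-like cells, 5 had between 5431 and 8453 Igkc UMIs and the remaining one, with 2676 UMIs in all, had 102. One of the 5 also held 17267 insulin UMIs (35.2%), beside 336 of Jchain, so its droplet carried RNA of both kinds. The cycling B cell-like cells were deep, with a median of 27777 UMIs against 2623 in the other virgin B cell-like cells. When only the 19 cells with 7500 UMIs or more were compared at that depth, 7 of 19 cycled. The multipara library had 0 B cell-like cells of that depth, so this class could not be compared between the libraries at like depth. By their own marker UMIs, 7 of the 8 B cell-like cycling cells met the limits of both the B cell and the plasma list. Of the 7, 1 also met the macrophage limit, with 19 UMIs over that list.

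Other immune cells gave single cases. A multipara T cell-like cell had 104 UMIs of Trbc2, a T cell receptor chain, 26 of Ptprc, all 12 calling genes and 11 S phase members. A virgin dendritic-like cell had 41 UMIs of Irf8, 6 of Xcr1 and 5 of Clec9a, genes of cross-presenting dendritic cells, with 12 calling genes. A further virgin cell in that cluster carried 1371 insulin UMIs of 6859 in all and no Irf8. It also held 28 Cd74, 10 H2-Aa and 2 Ptprc UMIs, so its droplet carried RNA of a beta cell and of an immune cell. With classes taken from each cell's own markers, that droplet was named beta. By this naming, 3 of 1634 virgin beta cells cycled with it counted (0.184%, 0.0379 to 0.536), against 1 of 1409 in the multipara library (0.0710%, 0.00180 to 0.395). The virgin plasma-like droplet with 17267 insulin UMIs also met the B cell and plasma limits and was not counted as beta. The multipara cell in the dendritic-like cluster had 81 UMIs of Prtn3, 60 of Elane and 30 of Mpo, protease and peroxidase genes of granulocyte precursors, with 185 of Lyz2 and none of H2-Aa. The virgin macrophage-like cell had 262 Cd74 and 109 H2-Aa UMIs but only 2 UMIs over the macrophage markers.

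In the multipara library the erythroid-like cluster had the most cycling cells, 16 of 48 (33.3%, 20.4 to 48.4). Red cell precursors divide while they begin to make haemoglobin and stop before it fills the cell. The share of cycling cells differed along that axis. Of the 8 cells under 5% haemoglobin 4 cycled, of the 12 between 5 and 50% 9 cycled, and of the 28 above 50% 3 cycled. All 4 cycling cells of the lowest range had Klf1, an erythroid transcription factor, at 2 to 14 UMIs, together with Car1 at 12 to 97 UMIs and Car2 at 14 to 99, carbonic anhydrases of red cell precursors. They had at most 2 UMIs of Alas2, the haem synthesis enzyme of red cells, and from 13 to 222 of Npm1. These 4 cells had 7 to 12 of the 12 S phase members, whereas the 3 cycling cells above 50% haemoglobin had 0, 0 and 2. Over all cells of the cluster, cycling or not, the median number of S phase members in the 3 ranges was 7.5, 8.5 and 0, and that of calling genes 4.5, 10 and 1.5. One cycling cell of the cluster held 9488 glucagon UMIs (31.7%) and 1377 of Ttr beside 3178 haemoglobin UMIs (10.6%), so its droplet carried RNA of both kinds. It is counted among the 16, and which kind gave its cell cycle transcripts was not tested. Median depth differed between the ranges (5857, 8559 and 5163 UMIs, haemoglobin included), as did the median number of genes detected (1693.5, 2076 and 496), and their part in these counts was not tested. A further multipara barcode outside the filter, with 30.7% mitochondrial UMIs, clustered with these cells when the filter was lifted.

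**Figure D3:**
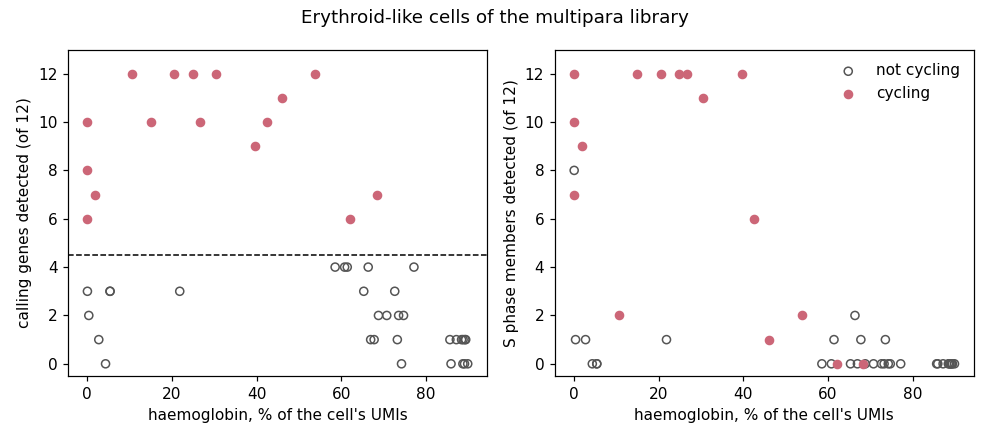
Each point is 1 of the 48 erythroid-like cells, all multipara, placed by the haemoglobin share of its UMIs (horizontal axis, %) and by the calling genes (left) or S phase members (right) detected of 12. Red points are the 16 cycling cells and the dashed line is the threshold of 5 calling genes. No cell above 68.4% haemoglobin cycled.

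The 12 calling genes were nearly confined to the cycling cells. These cells were 45 of 7668, held 0.629% of virgin and 0.635% of multipara UMIs, and held 86.7% and 86.4% of the calling-gene UMIs. Since these genes made the call, this describes the call and is no test of it. Mki67, which codes for the Ki-67 protein of dividing nuclei, had 245 virgin and 328 multipara UMIs and was seen in 44 of 45 cycling cells and in 0.735% of the others. Top2a, the topoisomerase that disentangles replicated DNA, had 278 and 192. Ube2c, which passes ubiquitin to targets of the anaphase-promoting complex, had the most UMIs of the 12, 346 and 285, with 92.2% of them in cycling cells.

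Cdk1, the mitotic kinase, had 151 virgin and 119 multipara UMIs. Its cyclin partners were Ccnb1 with 113 and 47, Ccnb2 with 106 and 85 and Ccna2 with 86 and 117. Birc5, the survivin subunit of the chromosomal passenger complex, had 219 and 184, and Cenpf, a kinetochore protein, 178 and 136. Tpx2, which nucleates spindle microtubules, had 112 and 66, Nusap1, a spindle-associated protein, 90 and 78, and Prc1, which bundles the central spindle, 134 and 117. Prc1 was the most widely spread calling gene, with 63.7% of its UMIs in cycling cells against 84.6 to 92.2% for the others.

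**Figure D4:**
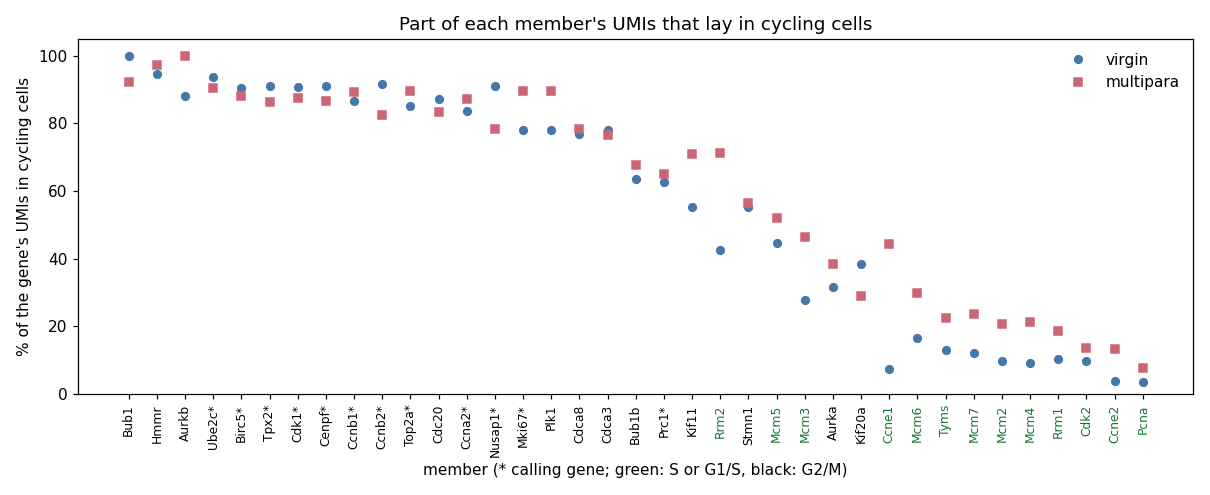
Percentage of each member's UMIs that lay in cycling cells (vertical axis), virgin as blue circles and multipara as red squares, with members in falling order of the pooled value. Asterisks mark calling genes, black names G2/M members and green names S or G1/S members. G2/M members hold most places at the left, up to 96.0% for Bub1, but Aurka (34.4%) and Kif20a (34.1%) lie below the S phase members Rrm2, Mcm5 and Mcm3, and Pcna is lowest at 5.42%.

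The 25 members outside the call were compared between the 45 cycling cells and 5185 other cells of the same classes and libraries, weighted to the makeup of the cycling cells. All 25 were at least 2-fold higher in cycling cells, and 21 were at least 10-fold higher. Of 15442 genes tested in the same way, 21.6% were at least 2-fold higher and 25% at least 2-fold lower. The median of the 24 members with a ratio was 21.2-fold, against 1.10-fold over all genes. Bub1 had 24 UMIs in cycling cells and none in the other cells, and so had no ratio. Intervals below cover the count in cycling cells and take the level in other cells as fixed.

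Among the mitotic members, Stmn1, which destabilises microtubules, had the most UMIs. It reached 830 CPM (UMIs per 1000000 UMIs of the cells) in cycling cells against 14.0 expected (59.2-fold, 55.2 to 63.5) and 55.8% of its UMIs lay in these cells. Cdc20, the activator of the anaphase-promoting complex, stood at 164 against 0.613 CPM, and Plk1, the polo-like kinase, at 65.4 against 0.470. Of the Aurora kinases, Aurkb of the passenger complex (72.2-fold, 56.6 to 90.8) was more restricted to cycling cells than Aurka of the spindle poles (10.3-fold, 7.77 to 13.4), with 92.4% and 34.4% of UMIs in them. Hmmr, a spindle protein, had 95.8% there, and the checkpoint kinase Bub1b 65.1%. Cdca3 and Cdca8, the latter the borealin subunit beside Birc5, were 36.7-fold and 14.9-fold higher. The mitotic kinesins Kif11 and Kif20a had 106 and 29 UMIs in cycling cells, with 62.4% and 34.1% of their UMIs in them. Their expected levels, weighted to the makeup of the cycling cells, were 0.146 and 0.643 CPM, from 37 and 48 UMIs in the other cells. Ratios to levels so low are uncertain in size. The same limit holds for Cdc20 and Plk1 above, with 16 and 11 UMIs in the other cells.

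By library, in all kept virgin and multipara cells, these members had 771 and 660 UMIs (Stmn1), 124 and 60 (Cdc20), 59 and 19 (Plk1), 50 and 29 (Aurkb) and 95 and 65 (Aurka). Hmmr had 93 and 74, Bub1 12 and 13, Bub1b 52 and 34, Cdca3 145 and 94 and Cdca8 152 and 125. Kif11 had 94 and 76, and Kif20a 47 and 38.

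The replication members rose less and were found widely outside the cycling cells. All 12 were at least 5.31-fold higher in cycling cells, with a median of 13.9-fold against 46.8-fold for the G2/M members outside the call. The call used G2/M genes only, and cells with S phase members but under 5 calling genes stayed among the other cells. This order therefore follows in part from the call and is no test of a difference between the sets. In all, 17.1% of their UMIs lay in cycling cells. Pcna, the sliding clamp of the replication fork, had 1268 virgin and 1132 multipara UMIs, the most of all members, and 5.42% of them lay in cycling cells. It was detected in 25.8% and 28.5% of beta-like and in 30.1% and 36.2% of endothelial-like cells, where Mki67 was seen in 0.421% and 0.214%, and in 0 and 0.407%.

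The MCM helicase genes differed among themselves. Mcm5 had 47.9% and Mcm3 35.4% of their UMIs in cycling cells, against 22.6% for Mcm6, 17.0% for Mcm7, 14.5% for Mcm2 and 14.1% for Mcm4. In virgin and multipara cells they had 146 and 121 UMIs (Mcm5), 266 and 186 (Mcm3), 462 and 389 (Mcm6), 482 and 360 (Mcm7), 293 and 232 (Mcm2) and 334 and 235 (Mcm4). The subunits of ribonucleotide reductase split further: Rrm2, the small subunit, had 59.4% of its 303 UMIs in cycling cells, and Rrm1, the large subunit, 13.6% of 845. Tyms, thymidylate synthase, had 504 and 472 UMIs with 17.5% in cycling cells. The E cyclins, which start S phase, had 121 and 120 (Ccne1) and 155 and 113 (Ccne2), and their kinase Cdk2 had 72 and 59. Cdk2 was seen in 11 of 45 cycling cells and was 5.43-fold higher there (3.04 to 8.96).

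**Figure D5:**
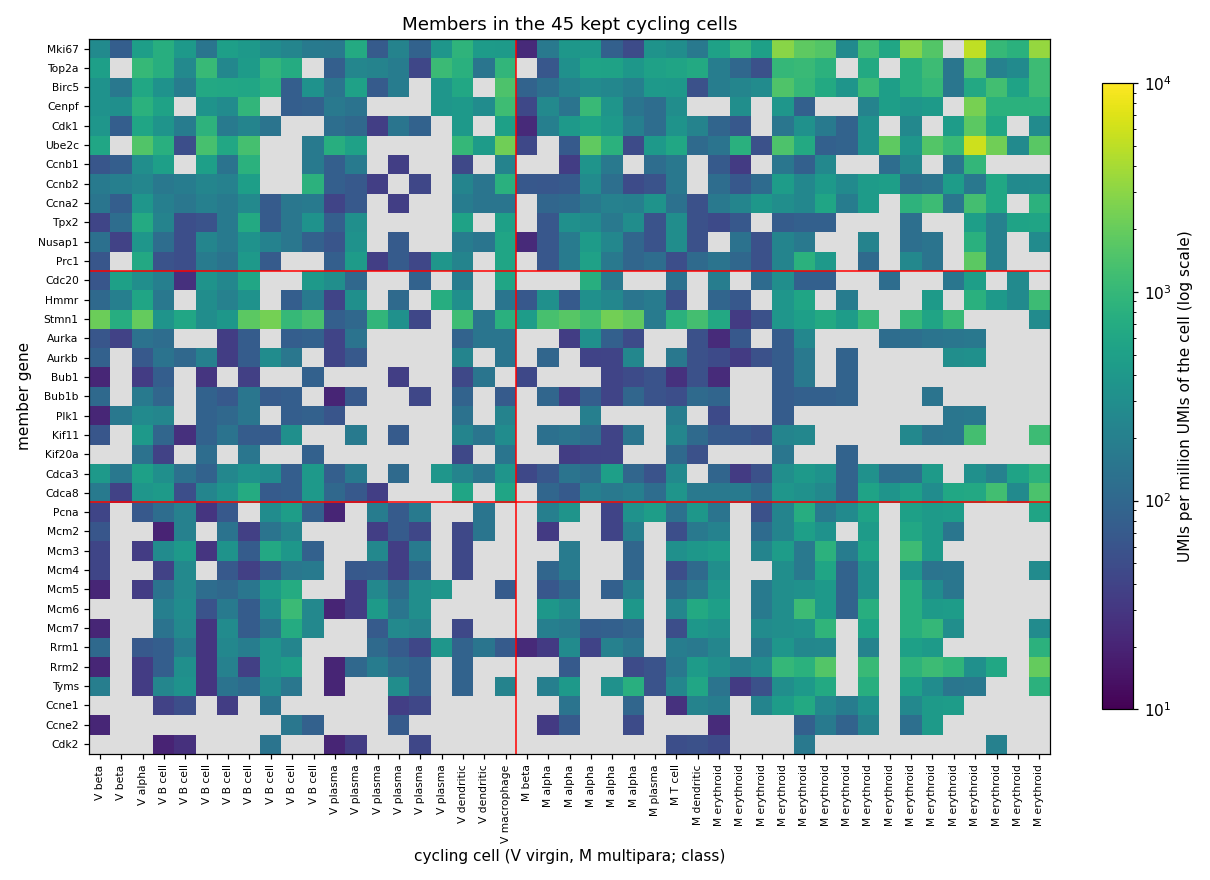
Level in CPM of each member (rows: calling genes, other G2/M members, then S and G1/S members, parted by red lines) in each of the 45 kept cycling cells (columns, V virgin and M multipara, with class), on a logarithmic colour scale with grey for no UMI. Calling genes fill most columns, while S phase members fill under 5 of 12 rows in 14 columns, among them the second virgin beta-like cell and the erythroid-like cells richest in haemoglobin.

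S phase and mitotic members were expressed in different mixtures from cell to cell. Of the 45 cycling cells, 31 had at least 5 of 12 S phase members and 14 had fewer, 12 of them at most 3. All 8 B cell-like and 5 of 6 alpha-like cycling cells were in the first set, as were 11 of 16 erythroid-like cells. Of the 3 beta-like cells, 1 was. Conversely 36 kept cells had 5 or more S phase members without being called, 22 virgin and 14 multipara, and a median depth of 17567 UMIs. Cells that replicate without mitotic transcripts would not be counted as cycling by the rule used here.

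The lists of other cell cycle genes were read beside the members. Of 42 other S phase genes, 42 were at least 2-fold higher in cycling cells and 25 at least 10-fold. The 5 with the most UMIs there were Dut, which removes dUTP (411 UMIs, 9.10-fold), Pclaf, a PCNA-binding protein (358, 70.8-fold), the histone chaperone Nasp (204, 7.05-fold), the histone mRNA-binding Slbp (202, 5.96-fold) and Tipin of the fork protection complex (141, 12.3-fold). Of 63 other G2 and M phase genes tested, 62 were at least 2-fold higher, and Pttg1, securin, stood at 0.870-fold with 1489 UMIs in other cells. The 5 with the most UMIs were H2afz, a histone variant (7.02-fold), Hmgb2, a chromatin protein (7.64-fold), and the tubulins Tubb5 (7.19-fold), Tubb4b (5.20-fold) and Tuba1b (12.1-fold).

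Between the libraries, the members in beta-like cells stood lower in multipara, and most of the difference lay in the cycling cells. Summed over the 37 members there were 2252 virgin and 1565 multipara UMIs, or 46.1 and 34.5 CPM (log2 ratio -0.42, -0.51 to -0.32). Of 34 members with at least 10 UMIs, 15 were at or past a log2 ratio of -1 and 0 were at or past 1, where 4.40% and 1.97% of 13746 genes were. One of the 15, Ccnb1, had 10 virgin UMIs and 0 multipara UMIs. Without the cycling cells, 24 members reached 10 UMIs. Mki67, Ube2c and Cenpf were among those that passed only through these cells, so the shares over all genes are no test of the 15. The median of the 34 was -0.81, against -0.09 over all genes. The other 3 members (Tpx2, Aurkb and Bub1) had too few UMIs.

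Single members show where these molecules were. The first virgin beta-like cycling cell held 143 calling-gene UMIs and the second 29. Mki67 had 22 virgin UMIs, 13 and 2 of them in these cells, and 3 multipara UMIs (log2 ratio -2.77, -5.15 to -1.03). Ube2c had 31, 28 of them in the first cell and 0 in the second, and 2 (-3.85, -6.95 to -1.87). Stmn1 had 191, 99 and 19 of them in the cells, and 70 (-1.34, -1.76 to -0.94). Cenpf had 26, 16 and 8 of them in the cells, and 6 (-2.01, -3.58 to -0.69). Of S phase members the first cell held 27 UMIs and the second 0. Pcna had 550 and 525 UMIs (0.04, -0.13 to 0.22), Tyms 202 and 185 (-0.02, -0.32 to 0.28) and Mcm7 156 and 123 (-0.24, -0.59 to 0.12). The S phase members whose interval lay below 0 were Mcm4 with 104 and 56 (-0.79, -1.28 to -0.30), Rrm1 with 175 and 123 (-0.40, -0.75 to -0.06) and Ccne1 with 64 and 38 (-0.64, -1.26 to -0.04).

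Without the 2 virgin and 1 multipara cycling cells, 1 of 24 members with enough UMIs was past a log2 ratio of -1, and the summed members stood at 38.0 and 33.6 CPM (-0.18, -0.27 to -0.08), beside -0.09 for the median gene. With the cell filter lifted, which lets in the fourth cycling beta-like barcode, 7 members were past -1 and 2 past 1, and the summed ratio was -0.18. With the first virgin cell alone left out, an alternative chosen after seeing the data, 3 of 29 members were past -1 and the summed ratio was -0.20, so most of the difference lay in 1 cell.

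In alpha-like cells the order was the opposite one. The members had 1449 virgin and 1694 multipara UMIs, 84.1 and 144 CPM (0.77, 0.67 to 0.88). Of 35 members with enough UMIs, 17 were at or past a log2 ratio of 1 and 0 at or past -1, where 1.62% and 2.81% of 12986 genes were. Mki67, Top2a and Cdk1 were among those that had enough UMIs only through the cycling cells. The shares over all genes are therefore no test of the 17. Cdk1 had 18 UMIs in virgin and 48 in multipara (1.96, 1.16 to 2.83), of which 17 and 46 lay in the cycling cells. Mcm6 had 67 and 97 (1.08, 0.62 to 1.55), of which 0 and 28 did. Tyms had 97 and 119 (0.84, 0.44 to 1.24), with 1 and 42. Outside the cycling cells the summed members stood at 62.3 and 65.2 CPM (0.07, -0.07 to 0.20).

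In delta-like cells, which held no cycling cell, 11 members had enough UMIs and 1 was past a log2 ratio of -1 (Ccne1, 11 and 2 UMIs, -2.15, -5.37 to 0.04) and 0 past 1, where 2.53% and 1.48% of genes were. Summed members stood at 94.8 and 78.3 CPM (-0.28, -0.50 to -0.05). PP-like cells had 50.1 and 43.0 CPM (-0.22, -0.59 to 0.15), with 2 of 7 members past -1 and 0 past 1, where 5.31% and 2.42% of genes were. Endothelial-like cells, also without a cycling cell, had 319 and 267 CPM (-0.25, -0.45 to -0.06), most of it S phase members (349 and 315 of 452 and 444 UMIs). There 1 of 11 members was past -1, Mcm2 with 16 and 8 UMIs, and 0 past 1, where 3.82% and 3.24% of genes were. In mesenchymal-like cells 2 of 9 members were past 1 and 2 past -1, where 10.8% and 14% of genes were. Of these, Stmn1 had 60 and 72 UMIs in 17 and 5 cells (1.78, 1.27 to 2.30). The summed members of this class were at 256 and 426 CPM (0.73, 0.39 to 1.07), and its S phase members at 150 and 146 CPM (-0.04, -0.60 to 0.49).

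In the immune classes the values are given with and without their few cycling cells. Some members in each class had enough UMIs only through these cells, as Mki67 did in B cell-like and T cell-like cells. The shares over all genes are therefore no test of the counts of members here. In B cell-like cells 32 of 33 members were at or past a log2 ratio of -1 and 0 at or past 1, where 23.9% and 7.52% of genes were, and 1744 of the 1919 virgin member UMIs came from the 8 cycling cells. Without these the level was 353 CPM in virgin and 138 in multipara cells (-1.36, -2.17 to -0.64), still below the median gene at -0.24. T cell-like cells went the other way through their single multipara cycling cell, which held 287 of 325 multipara member UMIs: 16 of 21 members were at or past 1 and 0 at or past -1, where 7.15% and 12.3% of genes were, and without that cell the summed ratio was -0.24 (-0.79 to 0.27). Macrophage-like cells had 7 of 12 members at or past -1 and 0 at or past 1, where 13% and 4.05% of genes were, and their level without the virgin cycling cell was 171 and 174 CPM. Dendritic-like cells had 5 of 16 members past 1 and 6 past -1, where 8.83% and 19.3% of genes were, and their summed ratio was -0.39 (-0.68 to -0.10), or -0.91 (-1.66 to -0.19) without cycling cells.

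Over all kept cells the members came to 8473 virgin and 6990 multipara UMIs, 102 and 100 CPM. The calling genes stood at 24.9 and 25.2 CPM, but their sources were not the same. B cell-like cells gave 43.2% of virgin calling-gene UMIs, plasma-like cells 14.4%, alpha-like 12.9% and beta-like 12.5%. In the multipara library erythroid-like cells gave 56.7%, alpha-like 23.9%, T cell-like 7.75% and beta-like 4.68%.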

How the data were processed

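Islet cells of virgin and multipara mice were measured by 10x Chromium 3′ v3.1 single-cell RNA-seq, 1 library a group. Per the labels, the authors used Cell Ranger 3.1.0, Seurat 3.0 and GRCm38 (mm10). The deposited values are raw UMI counts, with a row for each gene and a column for each barcode. The members and gene lists were chosen with earlier results of these data known, and the naming rule for clusters was written after the data were seen.

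Cells with over 200 and under 6000 genes, under 60000 UMIs and under 10% mitochondrial UMIs were kept, and 79 virgin and 18 multipara doublets called by Scrublet were removed. Clusters came from scanpy 1.11.5 and leidenalg 0.10.2 (2000 variable genes, 30 components, 20 neighbours, resolution 1) on both libraries together, with the members and the other cell cycle genes left out of the variable genes. A cluster took the class with the most markers, at least 3, among its 50 leading genes, and endocrine clusters the class of their leading hormone. Unnamed clusters held 233 virgin and 228 multipara cells. With 1 library a group no test was made. Shares have exact Clopper-Pearson and sums exact Poisson 95% intervals, and log2 ratios of CPM exact conditional binomial ones, all for counting error only. A ratio needed 10 UMIs in both libraries together and 30 cells in each, and was called at a size of 1. A share of 0 allows 3 counts. All 37 members are accounted for, with class values from 10 UMIs on, and the 5 genes with the most UMIs in cycling cells are named from each other list. Genes used to describe single cycling cells beyond the marker lists (Igkc, H2-Aa, Cd74, Car1, Car2, Npm1, Klf1, Prtn3, Elane and Mpo) were chosen after the cells were seen. The ratio script was tested on simulated counts.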

Additional observations from a re-analysis of the deposited data

How the results depend on the processing

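Depth limits every share here, since a shallow cell can miss calling genes. No paired analysis was possible because each group had 1 library and the labels carry no replicate numbers. Of the values of the main results under the alternatives, 104 stayed within the interval or range of the reported value and 26 did not. Thinning to 2500 UMIs, leaving out the erythroid-like cells, leaving out the deepest virgin cycling beta-like cell and naming a cell by its own markers were chosen after seeing the data. The cause of each change was not tested unless the alternative itself shows it.

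Thinned to 2500 UMIs, 0.202% of virgin and 0.462% of multipara kept cells cycled, with 0% of beta-like cells in both libraries and 2.38% of virgin plasma-like cells. Thinned to 7500, the shares were 0% of multipara beta-like, 36.8% of virgin B cell-like and 81.8% of erythroid-like cells, the last 2 over few cells. Without the erythroid-like cells the multipara share was 0.272%. With 3 genes needed, 56.3% of erythroid-like cells cycled, and with 8 needed, 0% of multipara beta-like cells. With cell cycle genes among the variable genes, beta-like, alpha-like and virgin B cell-like cells all stood at 0%, because cycling, plasma and haemoglobin-rich cells then formed 1 unnamed cluster. By own markers, 0.184% of virgin and 0.0710% of multipara beta cells and 0.775% of virgin B cells cycled. So did 10 of the 51 virgin cells that met both the B cell and plasma limits and no other (19.6%). That virgin beta share counts the droplet with 1371 insulin, 28 Cd74 and 10 H2-Aa UMIs. It leaves out the plasma-like droplet with 17267 insulin UMIs, which also met the B cell and plasma limits.

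The summed beta-like ratio moved to -0.18 without cycling cells, to -0.20 without the deepest virgin cycling cell, to -0.18 with no cell filter and to -0.16 with cell cycle genes among the variable genes. Against 15 of 34 members with enough UMIs, those past the fold were 1 of 24, 3 of 29, 9 of 35 (7 lower and 2 higher in multipara) and 3 of 26 there, and 3 of 16 after thinning. TMM and median-of-ratios scaling moved the median gene from -0.09 to -0.01 and to -0.00 and left 15 members past the fold. Signs reversed to 0.11 (Top2a) and 0.69 (Cdk1) without cycling cells, to 0.11 (Top2a) and 0.33 (Cdk1) without the deepest virgin cycling cell, and to 0.18 (Cenpf), 1.16 (Cdk1), 0.94 (Ube2c), 0.080 (Cdc20) and 0.71 (Hmmr) with no filter. They reversed to 0.20 (Cdca3) after thinning, to 1.49 (Kif11) with each cell weighted equally, and to 0.32 (Top2a), 0.71 (Cdk1) and 0.13 (Cdca8) with cell cycle genes among the variable genes. Members under 10 UMIs in an alternative were given no ratio there. In 6 such cases a member past the fold had its UMIs in the other order or equal (Cenpf and Ccnb2 without cycling cells and with cell cycle genes among the variable genes, Kif11 and Cdca8 after thinning). Of the 25 members outside the call, 23 to 25 were at least 2-fold higher in cycling cells under the alternatives.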
